A study of Mus musculus with 6 samples.

Results

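The cadherins and protocadherins of the mouse nucleus accumbens (NAc), the part of the ventral striatum that serves reward, were examined as a gene family. They were the protein-coding genes of GENCODE release M21 whose symbol starts with Cdh followed by a digit, or with Pcdh. By this rule, 92 of 21951 protein-coding genes were members, with 91 symbols, since Pcdha11 is the symbol of 2 gene identifiers. Total RNA was sequenced from the NAc of adult male C57BL/6N mice that had undergone conditioned place preference (CPP) training, where injections are given in a set compartment of a box. There were 6 libraries, 3 from mice given saline and 3 from mice given morphine. The mice carried no genetic alteration, and whether the tissue of several mice was pooled in a library is unclear, because the series description counts more mice than samples while a figure legend of the study speaks of a mouse per library.

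For each library the deposited data held a list of events found in its assembled transcripts. An event was a transcript start, a transcript end, a skipped exon, a retained intron or an exon with an alternative end. The lists give the presence of an event and no expression level, so a gene is listed when transcripts were assembled under its identifier, and a gene that is not listed may still be expressed. Some of these transcripts lay on the strand opposite to the gene. For Pcdha2, Pcdhga1 and Pcdh17 they were all that was listed in some libraries, so that 52 members were listed in all 6 libraries on their own strand. Of the 92 genes, 75 were listed in at least 1 library, 55 were listed in all 6 and 17 in none. Together they had 371 distinct events, of 133207 distinct events of all genes. The question put to these lists was whether transcript structures of the family differed between mice trained with morphine and with saline.

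Cadherins are calcium-dependent adhesion proteins that span the cell membrane and bind a like cadherin on the neighbouring cell. Classical cadherins (type I and type II) bind catenins inside the cell and hold synapses and other junctions together. The alpha, beta and gamma protocadherins are encoded in gene clusters, and in the alpha and gamma clusters each gene has its own promoter and large first exon, which is spliced to constant exons shared by the whole cluster. Neurons express different combinations of them, which serve in self-recognition of neurites. The delta protocadherins stand outside the clusters, and several of them have an alternatively spliced tail inside the cell.

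The exons shown first are the wholly coding ones that were listed both included and left out, or with both of 2 ends, in all 6 libraries. Capitals mark the bases that were present in some transcripts and absent from others. The sequences are those of GENCODE M21 transcripts (GRCm38), written from 5′ to 3′ on the strand of the gene.
Pcdh11x, 30 nt exon, chrX:120637595-120637624, plus strand: CGGCGATCTGATGGGAAAAAAGCAGGAAAG
Pcdh11x, 24 nt exon, chrX:120811140-120811163, plus strand: CTTTCATTCCTGGACTAAAGAAAG
Pcdh19, 141 nt exon, chrX:133682092-133682232, minus strand: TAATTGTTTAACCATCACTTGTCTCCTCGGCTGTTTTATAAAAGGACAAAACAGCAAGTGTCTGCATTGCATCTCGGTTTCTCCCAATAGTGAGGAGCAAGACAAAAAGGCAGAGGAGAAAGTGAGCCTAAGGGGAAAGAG
Pcdh7, 217 nt exon, chr5:57913156-57913372, plus strand: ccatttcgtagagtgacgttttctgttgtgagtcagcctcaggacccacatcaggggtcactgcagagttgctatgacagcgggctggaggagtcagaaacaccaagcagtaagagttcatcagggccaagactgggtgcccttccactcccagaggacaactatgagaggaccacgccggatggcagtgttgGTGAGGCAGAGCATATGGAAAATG
Pcdh9, 202 nt exon, chr14:93326679-93326880, minus strand: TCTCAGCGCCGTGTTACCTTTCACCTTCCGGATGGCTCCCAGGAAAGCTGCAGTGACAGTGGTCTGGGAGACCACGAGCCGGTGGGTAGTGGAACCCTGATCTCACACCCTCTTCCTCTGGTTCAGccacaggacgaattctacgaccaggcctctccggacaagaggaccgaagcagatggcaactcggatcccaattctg
Cdh8, 220 nt exon, chr8:99030839-99031058, minus strand: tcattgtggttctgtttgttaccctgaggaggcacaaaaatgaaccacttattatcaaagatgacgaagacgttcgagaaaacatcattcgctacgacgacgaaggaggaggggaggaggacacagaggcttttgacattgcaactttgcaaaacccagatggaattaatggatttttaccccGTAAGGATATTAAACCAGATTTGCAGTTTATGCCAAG
Cdh18, 252 nt exon, chr15:23460316-23460567, plus strand: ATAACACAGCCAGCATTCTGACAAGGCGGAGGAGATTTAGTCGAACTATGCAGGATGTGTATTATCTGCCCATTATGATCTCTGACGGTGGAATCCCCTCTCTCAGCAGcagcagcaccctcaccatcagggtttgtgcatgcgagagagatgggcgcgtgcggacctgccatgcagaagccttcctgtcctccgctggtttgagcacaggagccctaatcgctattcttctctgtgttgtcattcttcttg

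The 30 nt and 24 nt exons of Pcdh11x, an X-linked delta protocadherin, and the 141 nt exon of Pcdh19, an X-linked delta protocadherin mutated in a form of epilepsy, were cassette exons. Their lengths were multiples of 3, so that including or leaving them out kept the reading frame. The same was true of the 24 nt at the end of the Pcdh7 exon and of the 126 nt at the beginning of the Pcdh9 exon. It was not true of the 37 nt at the end of the Cdh8 exon or of the 109 nt at the beginning of the Cdh18 exon, whose lengths are no multiples of 3. The capitals of the Pcdh7 and Cdh8 exons began with GT, the bases with which an intron usually begins, and those of the Pcdh9 and Cdh18 exons ended with AG, the bases with which an intron usually ends. Both forms of each of these 7 exons were annotated.

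Relative sequencing depth was recovered from the ratio of read count to FPKM (a count normalised to transcript length and mapped fragments) in a table of long non-coding RNAs. It came to 1, 1.07 and 1.37 for saline libraries 1, 2 and 3 and to 1.2, 1.59 and 1.29 for the morphine ones, in the same order. The total read number was not analysed here. The libraries held between 54750 and 62313 events of between 14243 and 14956 genes. All 9 markers of striatal neurons were listed in all 6 libraries. The markers of astrocytes, oligodendrocytes, microglia and ependyma, and those of cortical excitatory neurons, were also listed in all 6 libraries (4 of 4 in each list). Of the endothelial markers 3 of 4 were, with Cldn5 listed in none, and of the fibroblast markers 3 of 4, with Col1a1 missing in morphine library 1. These lists of presence cannot separate cell types, and in bulk tissue fewer cells of a type and less RNA per cell cannot be told apart.

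The family had 173, 178 and 205 events in saline libraries 1, 2 and 3 and 194, 207 and 194 in morphine libraries 1, 2 and 3. Saline libraries 1 and 2 lay below every morphine library, and saline library 3 lay within the range of the morphine libraries. The saline mean was 185 ± 17.2 and the morphine mean 198 ± 7.51 (SD, n = 3), or 13 events more in morphine, which was within the spread of the libraries (two-sided exact permutation test, p = 0.3, adjusted p = 0.45 over 3 totals). The smallest p that 3 against 3 libraries allow is 0.1. Per 1000 events of the library the family had 3.27 ± 0.305 events in saline and 3.31 ± 0.176 in morphine (exact permutation test, p = 1.0). When divided by relative depth the difference turned to -15.6 events (exact permutation test, p = 0.3). Dividing presumes that event numbers rise in proportion to depth, whereas they went from 173 to 207 while depth went from 1 to 1.59.

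The number of family members listed was 62, 65 and 67 in saline libraries 1, 2 and 3 and 68, 68 and 69 in morphine libraries 1, 2 and 3. The groups did not overlap. The means were 64.7 ± 2.52 and 68.3 ± 0.577 (SD, n = 3), or 3.67 genes more in morphine, at the smallest p possible (exact permutation test, p = 0.1, adjusted p = 0.3), which does not pass 0.05. On the members' own strand the numbers were 61, 63 and 67 in saline and 67, 67 and 69 in morphine, and the groups met at 67 (exact permutation test, p = 0.3). The members that made up the difference were not the same in every library. Pcdha8 and Pcdhb19 were listed in morphine library 1 only, the latter with an end that is not annotated. Cdh26 was listed in morphine libraries 2 and 3, and Pcdh12, a protocadherin of endothelial cells, in morphine libraries 1 and 3. No member was listed in saline libraries alone. The share of all genes listed in the libraries of a single group is not given here. Over all genes, 14243, 14391 and 14791 were listed in saline libraries 1, 2 and 3. In morphine libraries 1, 2 and 3 there were 14483, 14956 and 14639, so that these numbers overlapped.

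**Figure D1:**
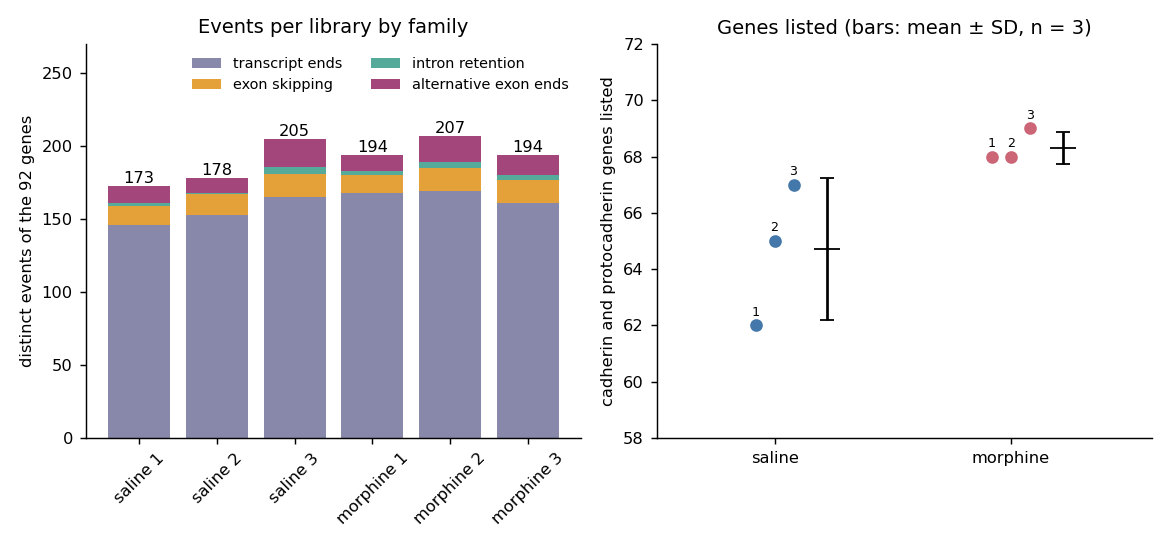
Left, distinct events of the 92 genes in each library, stacked by event family. Right, the number of the 92 genes listed in each library (points, numbered by library) with mean ± SD (n = 3) on an axis that starts at 58. Transcript ends made up most events in every library, and the morphine libraries (68, 68 and 69 genes) lay above the saline libraries (62, 65 and 67 genes).

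The event number of the family was higher in deeper libraries. Over the 6 libraries, Pearson's r between relative depth and the number of events was 0.936 (exact permutation test, p = 0.00833, adjusted p = 0.05 over 6 relations) and Spearman's rho was 0.986 (p = 0.00556, adjusted p = 0.0333). Without saline library 1 and morphine library 2, the libraries farthest from the median depth, r was 0.961. Events of all genes, compared later as the last of 7 relations, had r = 0.356 (exact permutation test, p = 0.487, adjusted p = 0.487) and rho = 0.2 (p = 0.714, adjusted p = 0.714), and r = 0.178 without these libraries. Over 7 relations the adjusted p of the family's events was 0.0583 for r and 0.0389 for rho. The number of members listed had r = 0.712 (exact permutation test, p = 0.106, adjusted p = 0.158) and rho = 0.638 (p = 0.194, adjusted p = 0.292), and r = 0.621 without the same libraries. Events of the clustered genes had r = 0.579 (exact permutation test, p = 0.232, adjusted p = 0.232) and rho = 0.486 (p = 0.356, adjusted p = 0.356), and r = 0.44 without these libraries. Events of the type II cadherins had r = 0.821 (exact permutation test, p = 0.0472, adjusted p = 0.0944) and rho = 0.812 (p = 0.0722, adjusted p = 0.206), and r = 0.976 without these libraries. The 3 morphine libraries had relative depths between 1.2 and 1.59, and saline libraries 1 and 2 the lowest depths of all. Saline library 3, at 1.37, was deeper than morphine libraries 1 and 3, so that depth moved with the group only in part. A group holds too few libraries to give the relation within it.

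**Figure D2:**
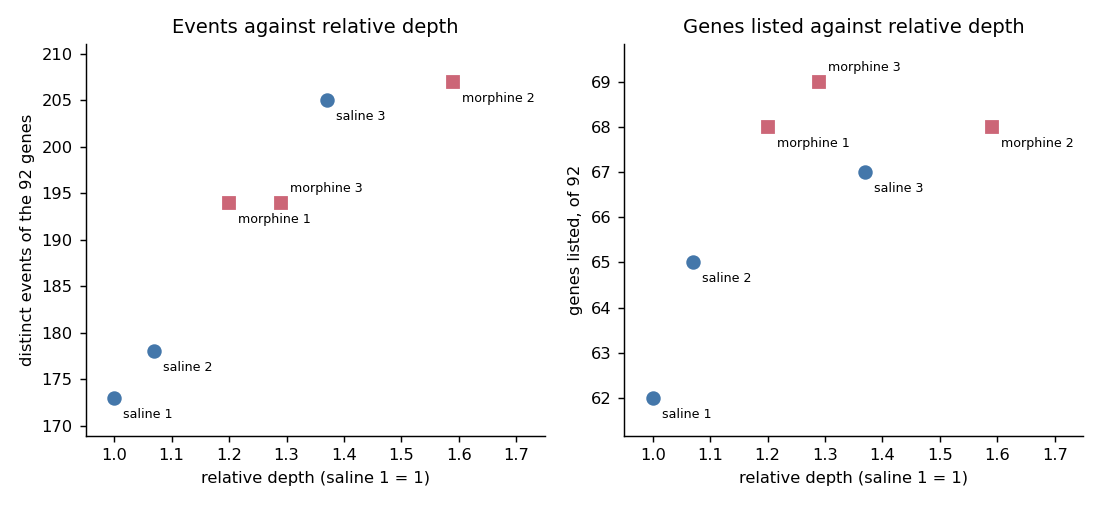
Relative depth of each library (saline library 1 set to 1) against the distinct events of the 92 genes (left) and the number of the 92 genes listed (right), with circles for saline and squares for morphine. Events rose from 173 at the lowest depth to 207 at the highest, and the vertical axes do not start at 0.

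Most events of the family were transcript starts and ends. They numbered 146, 153 and 165 in saline libraries 1, 2 and 3 and 168, 169 and 161 in morphine libraries 1, 2 and 3, and the groups overlapped (155 ± 9.61 against 166 ± 4.36, SD, n = 3, exact permutation test, p = 0.2, adjusted p = 1.0 over 16 event families and classes). Exon skipping gave 13, 14 and 16 events in saline and 12, 16 and 16 in morphine. Intron retention gave 2, 1 and 5 events in saline and 3, 4 and 3 in morphine. Alternative exon ends gave 12, 10 and 19 events in saline and 11, 18 and 14 in morphine. In these splicing families the group means differed by less than 1 event, and the exact permutation test gave p = 1.0, 0.8 and 0.9. These numbers include events on the strand opposite to the gene. On the annotated strand only, the difference was 1.67 for alternative exon ends (exact permutation test, p = 0.6) and 0.333 for intron retention. Of the 12 event classes, transcript ends in the narrow sense (without starts) did not overlap, with 72 ± 3.0 in saline and 78.3 ± 2.08 in morphine (SD, n = 3, exact permutation test, p = 0.1, adjusted p = 1.0). This number is not independent of the members listed. In 276 of 399 entries of a member in a library, a single start and a single end were all that was listed. The class was not recomputed on the members' own strand.

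The gamma cluster on chromosome 18 was the gene group whose events recurred most. All 21 of its genes were listed and 18 of them in all 6 libraries (17 on their own strand, since Pcdhga1 had only events of the other strand in saline libraries 1 and 2). Pcdhgb2 and Pcdhgb5 were missing in saline library 1 and Pcdhga4 in morphine library 3. Of its 49 distinct events, 36 (73.5%) recurred in all 6 libraries, where the share was 28.3% for the whole family and 20.5% for all genes. All 49 were starts and ends, while those shares include splicing events. Among starts and ends alone the share was 31.3% for the family and 29.8% for all genes. Events were counted per gene, so the last exon shared by the cluster entered this share once for each gene. Starts made up 19 of the 36 events. In 121 of 123 entries of a gamma gene in a library, the transcript end lay in the last exon that the cluster shares (splice-side position 37839903 on chr18), and the remaining 2 were on the other strand. Of its 27 distinct starts, 25 lay at annotated first exons. Since the ends are shared, only the starts tell these genes apart. Pcdhgc5, a C-type gene at the end of the cluster, had 4 events in every library, because 3 annotated first exons recurred in all 6 libraries. Their splice sites lay 14 nt and 2422 nt apart.

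The alpha cluster was less complete. All 14 of its genes were listed at least once, 7 of them in all 6 libraries, and 9 of 47 distinct events (19.1%) recurred in all 6. These events too were all starts and ends, of which 29.8% recurred in all genes. Pcdhac2, Pcdha5, Pcdha6, Pcdha7, Pcdha9, Pcdha2 and a Pcdha11 identifier (ENSMUSG00000102206) were listed in every library. In saline library 2 and morphine library 2, Pcdha2 had only events of the other strand, where the antisense gene Gm38225 is annotated, so that 6 alpha genes were listed in all 6 libraries on their own strand. Pcdhac1 was listed in saline library 3 and morphine library 1 only. Of 70 transcript-end entries, 47 lay in the most frequent shared last exon and 17 in a second annotated last exon that begins further downstream in the constant region. Of 26 distinct starts, 14 were at annotated first exons, and 10 were not annotated.

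Of the 22 genes of the beta cluster, whose genes have no shared constant exons, 6 were listed. The other 16 (Pcdhb1, Pcdhb2, Pcdhb3, Pcdhb4, Pcdhb5, Pcdhb7, Pcdhb9, Pcdhb11, Pcdhb12, Pcdhb13, Pcdhb15, Pcdhb16, Pcdhb17, Pcdhb18, Pcdhb20 and Pcdhb21) and Cdh16, a cadherin of the kidney, had no event. In the annotation 18 beta genes have a single exon, and 3 of these (16.7%) were listed, against 3 of the 4 with several exons. Over all protein-coding genes, 10.1% of single-exon genes and 76.5% of genes with several exons were listed in any library. A beta gene without an event may therefore still be expressed. Pcdhb10 was listed in 5 libraries, Pcdhb6 in 4, Pcdhb8 and Pcdhb22 in 3, Pcdhb14 in 2 and Pcdhb19 in 1. Only the ends of Pcdhb6 and Pcdhb8 lay at annotated last exons. The end listed under Pcdhb10 (splice-side position 37416396 on chr18) lay beyond the annotated end of the gene (37414514). Among the other ends that are not annotated, 37515027 lay within Pcdhb21 and 37505989 within Pcdhb20, which had no event under their own identifiers.

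No clustered gene had a splicing event in any library. In 198 of 209 entries of a clustered gene in a library (94.7%), a single start and a single end were all that was listed, while the share was 41.1% for the other members and 46.0% for all genes. The number of clustered events was 66, 70 and 73 in saline libraries 1, 2 and 3 and 77, 74 and 76 in morphine libraries 1, 2 and 3. These did not overlap (69.7 ± 3.51 against 75.7 ± 1.53, SD, n = 3, exact permutation test, p = 0.1, adjusted p = 0.9 over 9 gene groups). On the genes' own strand there were 64, 66 and 73 events in saline and 77, 71 and 76 in morphine, which overlapped (exact permutation test, p = 0.2). Within the clusters all 3 groups overlapped, with 21.3 ± 3.06 against 25.0 ± 1.0 alpha events (p = 0.2 by the exact permutation test), 5.33 ± 2.31 against 6.67 ± 2.31 beta events (p = 1.0) and 43.0 ± 2.65 against 44.0 ± 2.0 gamma events (p = 0.7).

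**Figure D3:**
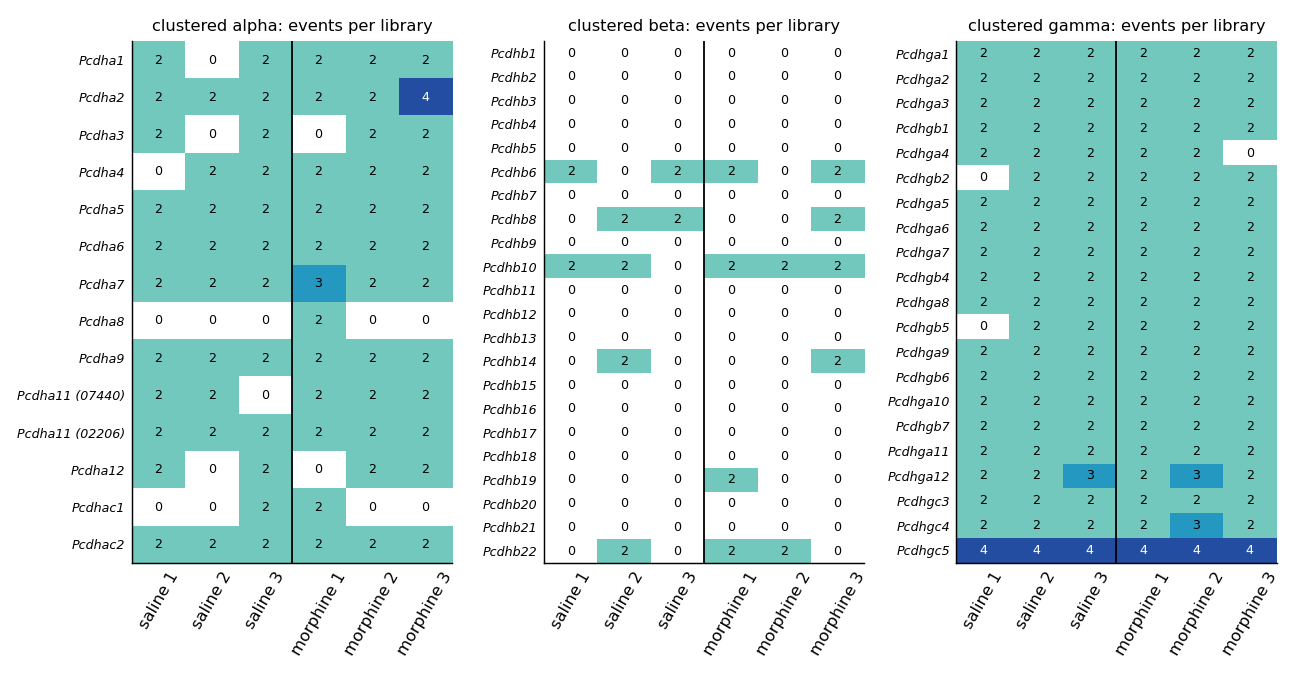
Number of distinct events of each clustered protocadherin gene (rows, in the order of the chromosome) in each library (columns), with white cells for genes not listed. The vertical line separates saline from morphine. Most gamma genes had 2 events, a start and an end, in every library, and 16 of the 22 beta genes had none.

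The 9 delta protocadherins were listed in all 6 libraries, 8 of them on their own strand, and 34 of their 82 distinct events were splicing events. These numbers include 20 events listed under Pcdh17, 9 of them splicing events. Of these 20 events, 17 lay on the strand opposite to Pcdh17, among them most of its splicing events. Pcdh7 had the highest mean event number of the family, with 7, 7 and 8 events in saline libraries 1, 2 and 3 and 8, 8 and 12 in morphine libraries 1, 2 and 3. The high value of morphine library 3 came with the skipping of the whole 217 nt exon in 3 forms and of that exon together with the next, none of which was listed in another library. In all 6 libraries Pcdh7 was listed with both donors of this exon, 24 nt apart, and with and without a 96 nt exon (chr5:57942167-57942262) that is partly coding. A further donor, 84 nt upstream of that of the 193 nt form, which leaves an exon of 109 nt and is not annotated, was listed in saline library 3 and in all 3 morphine libraries. The 2 bases that follow it are GT.

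Pcdh9, a delta protocadherin widely expressed in the brain, had 6, 5 and 9 events in saline libraries 1, 2 and 3 and 7, 7 and 5 in morphine libraries 1, 2 and 3. Both acceptors of its 202 nt exon, which leave 76 nt when the downstream acceptor is used, were listed in all 6 libraries. Other alternative ends of Pcdh9 lay in a large coding exon and recurred in at most 2 libraries. Pcdh11x had 7, 5 and 6 events in saline libraries 1, 2 and 3 and 5 in each morphine library. Both of its short cassette exons and 2 annotated first exons, with splice sites 74.7 kb apart, were listed in every library. The saline and morphine values touched at 5 events.

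Pcdh19 had 6, 7 and 3 events in saline libraries 1, 2 and 3 and 8, 7 and 3 in morphine libraries 1, 2 and 3. Saline library 3 and morphine library 3 were low together. Skipping of several adjacent exons was listed in saline libraries 1 and 2 and morphine libraries 1 and 2 and in neither of these low libraries, while its 141 nt cassette exon was listed in all 6. Pcdh10, Pcdh8 and Pcdh18, further delta protocadherins, had few events, and those of Pcdh10 and Pcdh8 were the same in all 6 libraries. Pcdh10 had 4, namely a start and 3 annotated last exons whose acceptors lay 20.1 kb and 13.1 kb apart. Pcdh8 had 3, namely 2 annotated first exons with splice sites 291 nt apart and an end. Pcdh1 had between 3 and 5 events, and a 39 nt cassette exon was listed in every library but morphine library 1.

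Pcdh17, a delta protocadherin of corticobasal ganglia circuits, had 3, 5 and 8 events in saline libraries 1, 2 and 3 and 6, 7 and 2 in morphine libraries 1, 2 and 3. Only part of these were on the strand of the gene. On the plus strand, that of Pcdh17, there were 3, 1 and 1 events in saline libraries 1, 2 and 3 and 0, 1 and 1 in morphine libraries 1, 2 and 3. On the minus strand there were 0, 4 and 7 in saline and 6, 6 and 1 in morphine. The minus-strand events were 17 of its 20 distinct events. Most of them lay within 9630013A20Rik, an annotated antisense gene at chr14:84458639-84476424, which had no event under its own identifier in any library. The libraries were prepared strand-specifically per the study's methods, so these events are given apart from those on the strand of Pcdh17.

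**Figure D4:**
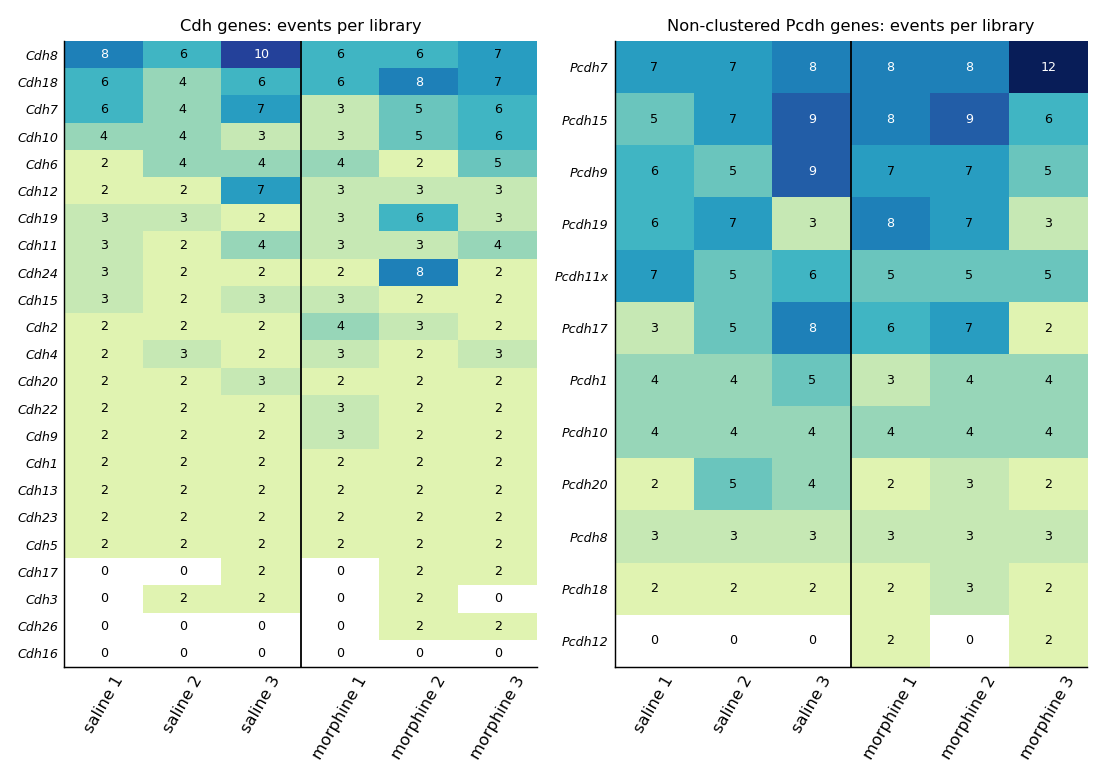
Number of distinct events of each cadherin gene (left) and each non-clustered protocadherin gene (right) in each library, with white cells for genes not listed, ordered by mean event number. Values of saline and morphine libraries overlapped in every gene, with the highest value of 12 for Pcdh7 in morphine library 3.

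The 13 type II classical cadherins were listed in all 6 libraries, and 10 of them had at least 1 splicing event. Cdh8, a cadherin of corticostriatal synapses, had 8, 6 and 10 events in saline libraries 1, 2 and 3 and 6, 6 and 7 in morphine libraries 1, 2 and 3. The alternative donor of its 220 nt exon, which leaves 183 nt, was listed in all 6 libraries. Also in all 6 libraries were 3 annotated last exons, the acceptor of the first of which is that of the same 220 nt exon. Cdh18 had 6, 4 and 6 events in saline and 6, 8 and 7 in morphine. Its 252 nt exon and the 143 nt form were listed in all 6 libraries. A further acceptor 3 nt upstream of that of the 143 nt form was listed in saline library 3 and morphine libraries 2 and 3. The 3 bases between these acceptors are CAG.

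Cdh7 had 6, 4 and 7 events in saline libraries 1, 2 and 3 and 3, 5 and 6 in morphine libraries 1, 2 and 3. It had some splicing event in every library, but not the same one, and the most frequent, the skipping of a 249 nt non-coding exon, was not listed in morphine library 2. Cdh10 had 4, 4 and 3 events in saline and 3, 5 and 6 in morphine, with 2 annotated first exons 1613 nt apart in every library. Cdh6 had 2, 4 and 4 events in saline and 4, 2 and 5 in morphine. In Cdh12 and Cdh19, which had the same mean of 3.33 events, a single library stood out. Cdh12 had 7 events in saline library 3 and 2 or 3 in the others, and Cdh19, a cadherin known from Schwann cell precursors, had 6 in morphine library 2 and 2 or 3 in the others. Cdh5, the cadherin of endothelial junctions, and Cdh13, a cadherin without a cytoplasmic tail, had an identical start and end in all 6 libraries.

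The type I cadherins had fewer recurrent structures. Cdh2 (N-cadherin), the main classical cadherin of neurons, had the same annotated start and last exon in all 6 libraries, and 3 further ends within the gene in morphine libraries 1 and 2, each listed in a single library. Cdh1 (E-cadherin), the epithelial cadherin, had 2 events in each library, but not the same ones. Of its 8 distinct starts and ends none recurred in every library. Of all 29 type I events, 19 (65.5%) were listed in a single library. Pcdh15, which forms the tip links of hair cells together with Cdh23, had 5, 7 and 9 events in saline libraries 1, 2 and 3 and 8, 9 and 6 in morphine libraries 1, 2 and 3. All 7 of its exon-skipping events were seen in a single library each. The same block of exons (chr10:74635630-74641413) was skipped in morphine libraries 2 and 3, but as events of different classes. Its retained intron of 2263 nt was listed in saline library 3 and morphine libraries 2 and 3.

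**Figure D5:**
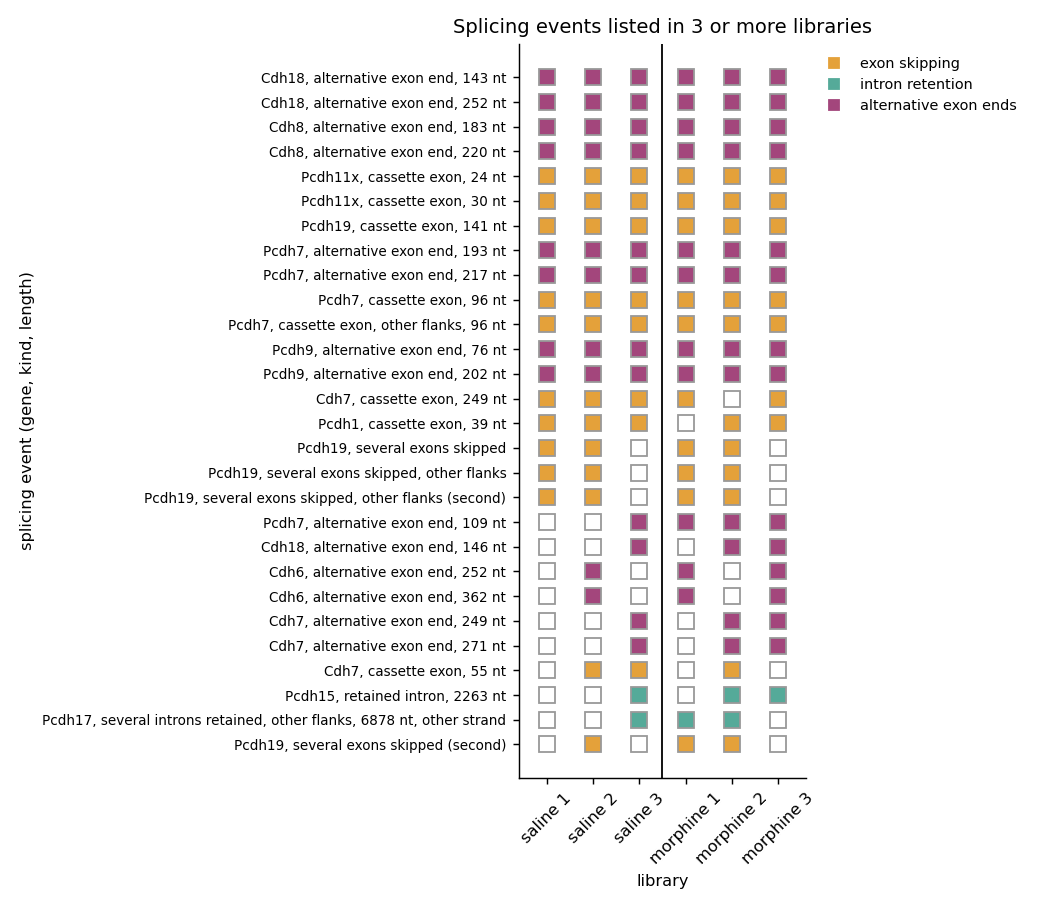
Splicing events of the family that were listed in at least 3 libraries (rows, with gene, kind and length), filled where the event was listed in the library (columns). Of 28 such events, 13 were listed in all 6 libraries, and none separated the groups completely. Each form of an exon with alternative ends counted as an event, and the 96 nt exon of Pcdh7 entered in different classes. The Pcdh17 event shown lay on the other strand.

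Recurrent events of the family were annotated ones. All 46 starts found in all 6 libraries lay at annotated first exons, and all 46 ends at annotated last exons. The 4 cassette exons and the 8 forms of exons with alternative ends found in all 6 libraries were annotated exons. For all genes the corresponding shares were 97.5%, 98.9%, 96.4% and 93.2%. Of the 66 starts of the family seen in a single library, 14 (21.2%) lay at annotated first exons. The corresponding share of all genes was not computed. All 4 of the cassette exons in all 6 libraries had a length that is a multiple of 3, as did 69.1% of the skipped exons of all genes that recurred in all 6 libraries. Over all skipped exons the shares were 13 of 26 (50.0%) in the family and 50.2% in all genes. These shares are descriptions, because exons of a gene are not independent. Across the 34 listed members outside the clusters, the mean event number had a Spearman's rho of 0.479 with the number of annotated transcripts, 0.434 with gene length and -0.327 with the highest exon number of a transcript. This is a relation across genes that share libraries and annotation and is given without a test.

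Events were called group-specific when every library of a group listed them and no library of the other did. Among all genes this held for 0.66% of the distinct events (0.382% in morphine only and 0.278% in saline only). In the family it held for 2 of 371 events (0.539%), near the level of all genes, with 1 in each direction. The first was a start of Pcdh17 at its annotated first exon (splice-side position 84448653 on chr14, plus strand), listed in saline libraries 1, 2 and 3 and in none of morphine. In the same 3 morphine libraries, the starts listed under Pcdh17 all lay on the minus strand, while plus-strand events of Pcdh17 were still listed in morphine libraries 2 and 3, so that transcripts of the gene were assembled there. The second was a start of Pcdha1, the first gene of the alpha cluster, at a position that is not annotated (splice-side position 36931943 on chr18). It was listed in all 3 morphine libraries, each time with a different end that is not annotated either, while Pcdha1 was listed with other starts in saline libraries 1 and 3. When all coordinates and the pattern of an event were required to match, 1 group-specific event was left. Without saline library 3 the definition was met by 11 events of the family (3.28%, against 1.82% for all genes), and without each of the others by 3 to 7.

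A gene was called non-overlapping when its 3 event numbers in a group all lay above the 3 of the other. This held for 2.77% of all listed genes (1.81% higher in morphine and 0.966% lower) and for 0 of the 75 listed members. Per 1000 events of the library it held for 2 members, Pcdh11x and Pcdhga4, both lower in morphine (2.67% against 3.93% of all genes in this direction). When divided by relative depth it held for 5, Pcdh11x, Cdh8, Pcdh20, Cdh20 and Pcdh1, again lower in morphine (6.67% against 6.56% of all genes in this direction). In the other direction it held for 1.0% of all genes and 0 members. The division lowers deeper libraries even where event numbers are constant. Pcdh10, with 4 events in every library, came to a difference of -0.569.

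Genes that act with the family were listed throughout. All 13 catenins and nectin partners, which link classical cadherins to actin and to neighbouring junctions, all 12 genes of cadherin proteolysis and protocadherin signalling (among them Adam10, which cleaves cadherins, and the Wasf1 complex) and all 10 chromatin factors of the clusters (among them Ctcf and the cohesin subunits) were listed in all 6 libraries. Of 24 other genes of the cadherin superfamily 16 were listed in all 6 libraries and 2, Cdhr5 and Dsg3, in none. No gene of these 4 lists had non-overlapping event numbers. Group-specific events were found in Ctnnd1 and Celsr3 (1 each, morphine) and in Nectin2 and Fat1 (1 each, saline), that is 4 of the 614 distinct events of these lists (0.651%, against 0.66% of all genes). Ctnnd1, or p120-catenin, had 5, 6 and 8 events in saline libraries 1, 2 and 3 and 6, 7 and 8 in morphine libraries 1, 2 and 3, so that its event numbers overlapped.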

How the data were processed

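Groups (3 libraries each) were taken from the treatment label of the samples. Replicate numbers follow accession order and are names only. The labels do not tie libraries to animals, and the series description and the study differ on how many mice were used, so p-values measure the spread between these samples, whatever its source. The authors mapped the reads of strand-specific libraries of NAc total RNA with HISAT2 and assembled transcripts with StringTie. The genome build is not given in the sources used here, and positions matched GENCODE M21 on GRCm38.

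The deposited event lists of the single libraries have the layout that ASprofile writes. Their column called FPKM is a score that the authors deposited without saying how it was made. It held 0 and negative whole numbers down to -25 and was not used. The read counts and FPKM values of the lncRNA table, deposited by the authors, served only for the relative depth (91 values with at least 10 counts, of 31 transcripts, weighted least squares on the log ratio). Its fold changes and p-values are the authors' own comparisons and were not used. The number of unused per-sample columns was 0.

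ON and OFF entries of an event were counted once, so that 20 event types became 12 classes in 4 families. Events of different libraries were matched on class, gene, strand and the coordinates of the exon or intron, and transcript starts and ends on their splice-side position. Groups were compared in event numbers with exact permutation tests over libraries (two-sided), adjusted by Benjamini-Hochberg. Named were the 15 members with the highest mean event number, members with a splicing event in all 6 libraries, those with a group-specific event or non-overlapping numbers, and those with no event. Cdh19, tied with Cdh12 in mean, and other members given as examples were chosen after their values were seen. The members and gene lists were chosen with earlier results of these data known. Other identities, strands, scalings, assignment by position and leaving out each library were tried. Scripts were tested on simulated data. The tools were numpy 2.4.6, scipy 1.17.1, pandas 2.3.3 and, for figures, matplotlib 3.10.9, under Python 3.11.15.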

Additional observations from a re-analysis of the deposited data

How the results depend on the processing

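Of 214 recomputed values that answer a comparison, 160 kept their direction (or, for counts, stayed close), though not always their size, 33 turned direction and 21 moved otherwise. No test passed 0.05 under any setting, and its smallest p, 0.1, is also the smallest that 3 against 3 or 2 against 3 libraries allow. Differences are given as morphine minus saline. Division by relative depth lowers the values of deeper libraries even where event numbers are equal. The alternatives for all clustered genes together were added after seeing the data.

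When divided by relative depth, the differences turned to -15.6 for all events, -12.8 for transcript ends, -1.77 for exon skipping, -1.29 for alternative exon ends, -1.14 for type I, -3.84 for type II, -0.086 for alpha, -5.27 for gamma, -5.03 for all clustered, -5.59 for delta and -0.802 for other Pcdh genes, and 5 members did not overlap. Per 1000 events of the library they turned to -0.00696 for exon skipping, -0.000417 for alternative exon ends, -0.00516 for type I, -0.0246 for gamma, -0.0314 for delta and -0.000107 for other Pcdh genes, and 2 members did not overlap. With genes listed in all 6 libraries only, the difference fell to 5.67 for all events, 4.0 for transcript ends, 1.0 for alpha and 1.33 for all clustered genes. It was 0.0 for other Cdh and for beta genes, since such a gene adds nothing or was dropped, and -0.667 for other Pcdh genes, and 1 group-specific event was left. With all coordinates and the pattern required, 1 group-specific event was left. On the annotated strand only, and with assignment by position, the difference of the delta genes was 0.0. In both settings that of alternative exon ends was 1.67 and that of intron retention 0.333. On the annotated strand only, neither the members listed nor the clustered events separated the groups (p = 0.3 and 0.2 by the exact permutation test). Other causes were not tested.

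With 1 library left out, the difference of all events ranged from 6.83 (without saline library 1) to 22.8 (without saline library 3), of transcript ends from 7.0 to 16.5 and of members listed from 2.33 to 4.83 (the same libraries), of alpha events from 2.0 (without saline library 2) to 5.0 and of all clustered events from 4.17 to 7.67. The others ranged from -0.333 to 1.67 for exon skipping, -0.167 to 1.83 for intron retention, -1.17 to 3.33 for alternative exon ends, -0.333 to 1.17 for type I, -0.167 to 7.33 for type II, -0.5 to 2.0 for gamma, -1.0 to 3.0 for delta and -1.17 to 1.83 for other Pcdh genes. Fewer libraries make both definitions easier to meet. Members without overlap numbered 1 to 3 (3 without morphine library 1, where 6.24% of all genes did not overlap). Group-specific events numbered 4, 6 and 11 without saline libraries 1, 2 and 3 and 3, 7 and 6 without morphine libraries 1, 2 and 3. In all genes the share of such events was 1.82% without saline library 3, where the family had 3.28%, and between 1.82% and 2.19% over all libraries left out.

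Assignment by position gave no value for members listed or non-overlapping, because clustered genes nest within each other, and keeping genes listed in all 6 libraries gave none for members listed. No paired analysis was possible because the labels carry no replicate numbers shared between the groups. An event missing from a list was not detected in that library, and the part that depth had in this was not tested.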
